A study of Mus musculus with 6 samples.

Results

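The genes described here are those whose symbol begins with Vps and a number, a name that stands for vacuolar protein sorting in yeast. The array files carry an accession for each probe and no gene symbol, so a probe was taken as a member when its RefSeq accession, without the version, matched a gene of that name. Members were thus selected by name, in a group of genes proposed with earlier results of these data known, and then by the background flags below. This gave 50 of the 55681 probes on the array, for 35 genes. Only 28331 of those probes could be given a symbol in this way, so further Vps probes may be among the others. Of the 35 genes 23 had 1 probe, 9 had 2 and 3 had 3. Probes of one gene are numbered by their mean signal over the 6 arrays, starting from the brightest, and the probe sequences were not used here. A member was compared when the scanner software flagged its probe as well above background throughout at least 1 group of 3 arrays, which held for 49. All 49 were well above background on all 6 arrays, so none entered through 1 group only.

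The RNA came from cultured precursor cells of the adult mouse dentate gyrus, where new neurons arise throughout life. They were primary cells of male C57BL6/JRj animals aged 8 weeks, grown on a coated surface with 20 ng/ml each of EGF and bFGF, and how many animals they came from is not stated in the labels. One group received human LDL, the particle that carries cholesterol in blood, and the other saline, each for 48 h and each with 3 arrays from experiments on different passages. The treatment protocol gives 100 ug/ml of LDL, whereas the sample descriptions write a different volume unit, so the dose is uncertain by the labels. All 8 precursor markers checked, among them Nes, Sox2 and Vim, were well above background on all arrays. Of the 6 markers checked for each other cell type, 5 neuronal, 6 astrocyte, 6 oligodendrocyte, 4 microglial and 2 vascular ones were too, so presence above background does not separate these types here. In whole cultures, a lower share of cells of one type and less RNA per cell cannot be told apart. The summed level of the astrocyte markers ranged from 5.47 to 5.65 with saline and from 5.20 to 5.31 with LDL (normalized log2 signal), and that of the precursor markers from 8.36 to 8.66 and from 8.47 to 8.59. Of the astrocyte markers Gfap, a filament protein, rose by 1.35 on the log2 scale (adjusted p = 0.031 in limma, a call held in 8 of 18 other settings with a test), and 5 of the 6 had negative values. The part of these levels in the results below was not tested.

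Cells take up LDL and deliver it through endosomes to lysosomes, where its cholesterol is released, while many membrane proteins return from endosomes to the surface. Vps proteins carry out the sorting on this route. Retromer and retriever return membrane proteins from endosomes, CORVET and HOPS tether early and late endosomes before they fuse, ESCRT complexes pack membrane proteins into vesicles inside endosomes, and GARP receives carriers at the Golgi while the related EARP acts in recycling. VPS13 proteins are bridges that move lipids between organelles. Vps72 shares the name but belongs to chromatin complexes, and it is kept here because the rule includes it.

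Several genes for lysosomes and autophagy carry the letters CACGTG near their start, in a longer sequence named the CLEAR element that TFEB and its relatives bind. The windows of 250 bases before and 50 after a start were searched for CACGTG on both strands, in RefSeq sequence of GRCm38.p6. There were 27 windows for 22 of the 35 genes. CACGTG was in 5 of the 27 windows, against 7.15% of all 32851 windows, and the 5 belonged to Vps16, Vps33a, Vps26a (with 2 of its starts) and Vps50. The 2 Vps26a windows overlap and share 1 copy, so the 5 windows are not separate places in the genome. The longer TCACGTGA was in 4 of these windows and in 0.974% of all windows, and GTCACGTG in 5 and in 2.25%. These motifs overlap each other. Of letters from sites that SREBP can bind, TCACCCCAC was in none of the 27 windows (0.551% of all) and TCACNCCAC in that of Vps54 (1.24% of all). ATTGG, the reverse complement of the CCAAT box, was in 4 (37.4% of all). The 250 bases upstream are shown for 3 of the genes, with CACGTG in capitals, because their sequences carry the motif before the start of the window shown. They lie at chr2:130424070-130424319 on the plus strand, chr5:123573016-123573265 on the minus strand and chr10:62486599-62486848 on the minus strand.
Vps16: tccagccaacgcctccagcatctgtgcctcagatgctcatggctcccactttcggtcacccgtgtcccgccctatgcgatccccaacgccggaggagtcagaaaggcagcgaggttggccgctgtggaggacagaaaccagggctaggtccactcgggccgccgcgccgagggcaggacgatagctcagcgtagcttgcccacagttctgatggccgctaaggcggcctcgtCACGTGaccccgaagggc
Vps33a: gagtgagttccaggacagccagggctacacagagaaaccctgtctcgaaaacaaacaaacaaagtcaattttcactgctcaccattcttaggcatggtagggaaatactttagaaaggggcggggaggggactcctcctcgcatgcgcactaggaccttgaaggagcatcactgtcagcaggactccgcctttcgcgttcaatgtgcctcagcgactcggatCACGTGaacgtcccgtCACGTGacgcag
Vps26a: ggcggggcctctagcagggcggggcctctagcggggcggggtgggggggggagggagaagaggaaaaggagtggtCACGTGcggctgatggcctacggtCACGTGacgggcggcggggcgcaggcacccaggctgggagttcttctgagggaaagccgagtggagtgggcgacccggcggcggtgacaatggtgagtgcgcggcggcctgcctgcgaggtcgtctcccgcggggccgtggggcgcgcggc
In Vps16 the first base of the motif lies 18 bases before the start. In Vps33a the 2 copies begin 28 and 12 bases before it, and in Vps26a 175 and 151 bases before the start shown. In Vps50 the only copy lies behind the start, from base 26 on. A match of letters is a description of the sequence, and no binding was measured.

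The series concerns cholesterol metabolism in precursor cells, by its title. No Vps probe passed an adjusted p of 0.05 in limma (3 arrays against 3, Benjamini-Hochberg adjustment over 32990 tested probes). The lowest adjusted p among them was 0.619. Over the whole array 0.0879% of tested probes passed, 5 of them higher after LDL (0.0152%) and 24 lower (0.0727%). For comparison, Hmgcs1, the first committed step towards mevalonate, fell by 2.15 on the log2 scale (adjusted p = 0.0116), and Fdps, also of that pathway, by 1.96 (adjusted p = 0.00514). Hmgcs1 passed in 11 and Fdps in 12 of 18 other settings with a test. All values below are normalized log2 signals, in which 0 is the 75th percentile of the array, or differences of such values, LDL minus saline.

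**Figure D1:**
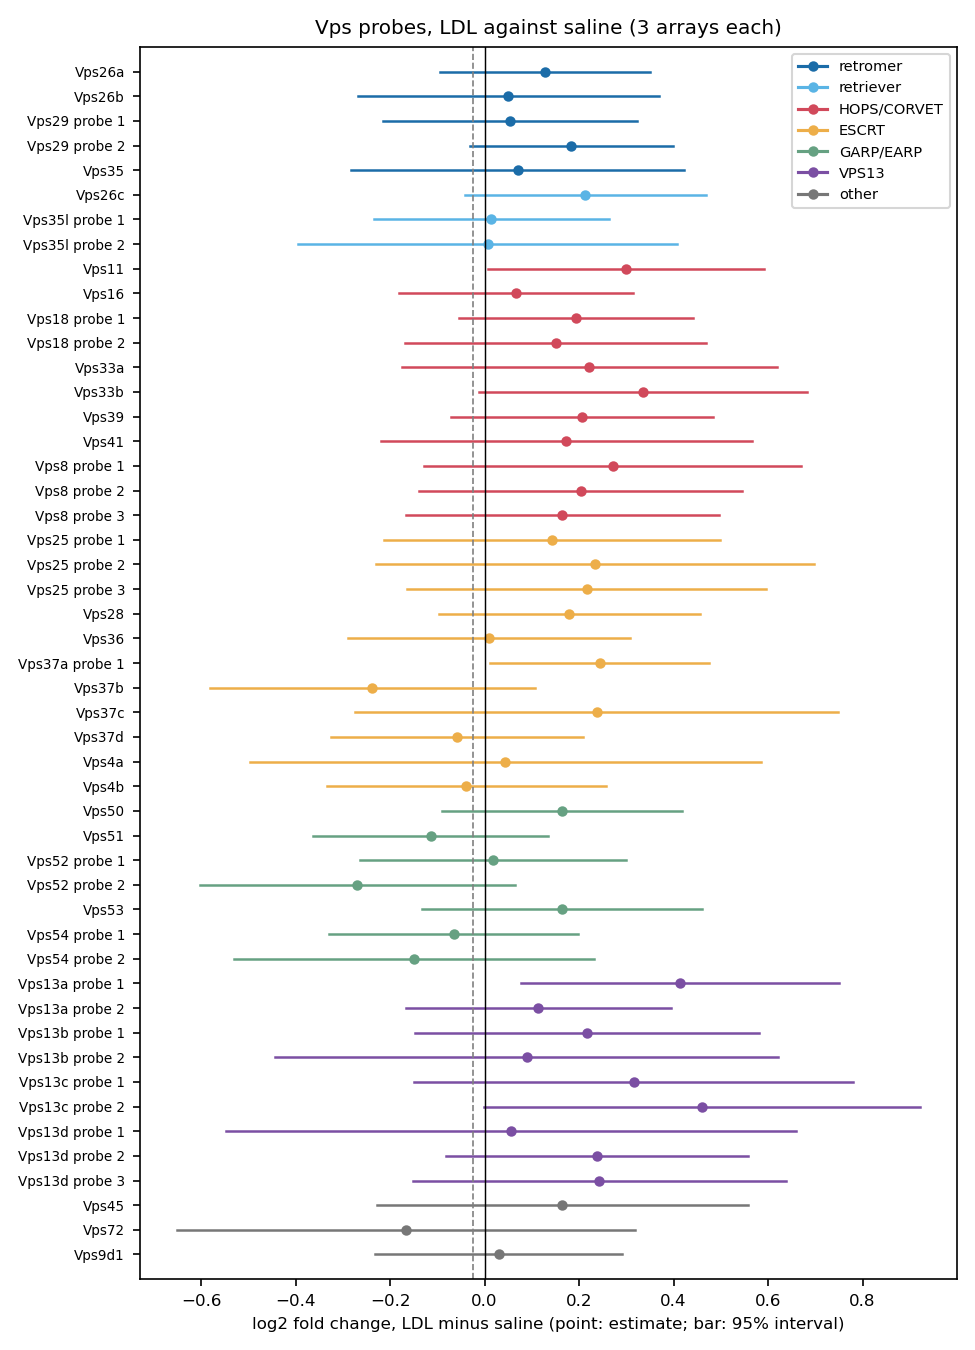
Log2 fold change (LDL minus saline) of the 49 tested Vps probes, coloured by complex. Points are estimates, bars are 95% intervals from limma, the solid line is 0 and the dashed line the median of all tested probes (-0.02). Points of retromer, HOPS/CORVET and VPS13 lie right of 0, most bars cross 0, and those of Vps11, Vps37a probe 1 and Vps13a probe 1 do not.

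The differences were small and most of them positive. The median log2 fold change of the 49 probes was 0.16, a ratio of 1.12, while the median of all tested probes was -0.02. Positive values were found for 41 probes and negative ones for 8, whereas 44.4% of all tested probes were positive. The estimates ran from -0.27 for Vps52 probe 2 to 0.46 for Vps13c probe 2. The 95% intervals of the 49 probes reached from -0.65 to 0.92, so none of them included a change as large as a doubling or its inverse. An unadjusted p below 0.05 was found for 3 probes, all with positive values (background 2.87% higher and 4.08% lower). The LDL values lay above all saline values for 8 probes and below them for 0. Of all tested probes 5.68% had LDL values above and 8.40% below those of saline. With the brightest probe of each of the 35 genes, 29 were positive and 6 negative with a median of 0.14, and without Vps72 the median was 0.16. Under 4 other scalings (median, quantile, normexp with quantile, and the authors' values) the median stayed between 0.11 and 0.20 with 40 to 42 positive probes, while the median of all probes was between -0.01 and 0.01. Without saline replicate 1 the Vps median was 0.06 and 34 of the 49 were positive. The p-values measure the spread between these cultures, which came from separate experiments.

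**Figure D2:**
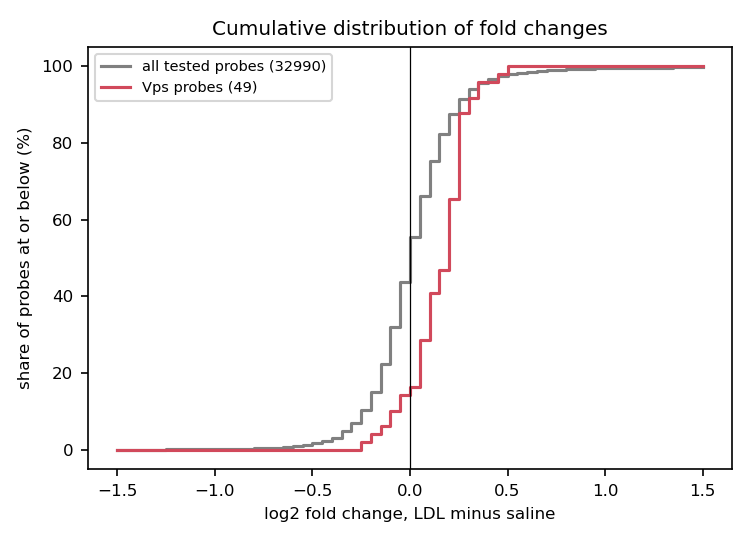
Share of probes (%) at or below each log2 fold change (LDL minus saline, steps of 0.05) for the Vps probes and for all tested probes. The Vps curve runs to the right of the other around 0, where 16.3% of Vps probes and 55.6% of all probes were negative, and the curves come close from 0.3 upwards.

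Retromer, the core of Vps26, Vps29 and Vps35 that binds cargo on endosomes, was measured by 5 probes, all positive, with a median of 0.07 (0.01 without saline replicate 1 and 0.16 without saline replicate 2). The median stayed between 0.08 and 0.11 under the other scalings, with 5 positive probes in each. Vps35, the scaffold of the complex, had -0.47, -0.02 and -0.01 on saline replicates 1 to 3 and -0.13, -0.13 and -0.02 on LDL replicates 1 to 3. The LDL arrays lay inside the range of the saline arrays, and the log2 fold change was 0.07 (95% interval -0.28 to 0.42), which was -0.08 without saline replicate 1. Vps26a, the arrestin-like subunit found in most cells, had 2.84, 2.90 and 2.79 with saline and 3.001, 2.94 and 2.97 with LDL. Its groups did not overlap, with an estimate of 0.13 (SE 0.09, adjusted p = 0.851). Its paralog Vps26b had 0.90, 1.33 and 1.10 with saline and 1.23, 1.09 and 1.16 with LDL, and the groups overlapped (log2 fold change 0.05, adjusted p = 0.963, and -0.05 without saline replicate 1). The 2 probes of Vps29, the phosphoesterase-fold subunit that also serves retriever, differed. Probe 2 had 2.91, 2.89 and 2.92 with saline and 3.06, 3.10 and 3.10 with LDL, without overlap, and 0.18 as log2 fold change (SE 0.09, adjusted p = 0.769). Probe 1 had 3.19, 3.46 and 3.18 against 3.34, 3.33 and 3.32, with 0.05 (adjusted p = 0.955). The high value of saline replicate 2 kept the groups of probe 1 overlapping.

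Retriever, the related carrier of Vps26c, Vps35l and Vps29, returns membrane proteins such as integrins to the surface with the adaptor Snx17. Vps26c had 1.85, 1.90 and 1.76 with saline and 2.18, 1.98 and 1.99 with LDL, all LDL arrays being higher. Its log2 fold change was 0.21 (95% interval -0.04 to 0.47, adjusted p = 0.782). Vps35l, the scaffold, had 3.62, 3.51 and 3.38 with saline and 3.48, 3.54 and 3.52 with LDL on probe 1. The LDL values fell between the saline values, and both Vps35l probes had 0.01 as log2 fold change (adjusted p = 0.988 for probe 1 and 0.997 for probe 2), with either sign when 1 array was left out.

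The probes grouped as CORVET and HOPS, with the related Vps33b included, were all positive, 11 of 11 for 8 genes, with a median of 0.20. The 10 probes of 7 genes without Vps33b had a median of 0.20 too. The same 11 were positive under each of the 4 other scalings and with each array left out, although leaving out saline replicate 1 gave 0.07 and leaving out saline replicate 2 gave 0.30. The 4 arrays of slide row 1 alone gave 0.24, and the pair in slide row 2 gave 0.11. Slide row was read from the scanner's own numbering and is not named in the labels. Row 1 held replicates 1 and 2 of both groups and row 2 replicate 3, so row and replicate cannot be told apart. Both complexes share a core of Vps11, Vps16, Vps18 and Vps33a. Vps11, a core subunit with a RING domain, had 0.22, 0.48 and 0.26 with saline and 0.74, 0.64 and 0.48 with LDL. LDL replicate 3 met saline replicate 2 at the edge of the groups, and the log2 fold change was 0.30 (SE 0.12, unadjusted p = 0.0461 and adjusted p = 0.707 in limma). Vps18, its partner with a RING domain, had 1.13, 1.24 and 1.33 against 1.49, 1.35 and 1.43 on probe 1, without overlap, and a log2 fold change of 0.19 (adjusted p = 0.796). Vps18 probe 2 gave 0.15. Vps16 and Vps33a, whose promoters carry CACGTG, had 0.07 (adjusted p = 0.933) and 0.22 (adjusted p = 0.854). The Vps33a probe was printed in 10 spots on each array, and all other members in 1.

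Vps39 and Vps41 are the HOPS subunits that bind small GTPases of late endosomes and lysosomes. Vps39 had -0.27, -0.13 and -0.17 with saline and 0.20, -0.06 and -0.08 with LDL, all LDL arrays above all saline arrays, with LDL replicate 1 farthest (log2 fold change 0.21, adjusted p = 0.809, and 0.12 without that array). Vps41 had 0.17 (adjusted p = 0.887), and 0.0091 without saline replicate 1. Vps8, the subunit of CORVET that binds Rab5, had 3 probes with 0.27, 0.20 and 0.16, which were 0.11, 0.059 and 0.035 without saline replicate 1. Vps33a was then 0.074. Vps33b, a paralog of Vps33a that works with Vipas39 outside HOPS, had -0.66, -0.25 and -0.54 with saline and 0.04, -0.24 and -0.24 with LDL. Its groups did not overlap by a small margin between saline replicate 2 and LDL replicates 2 and 3, and the log2 fold change was 0.33 (SE 0.15, adjusted p = 0.732).

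**Figure D3:**
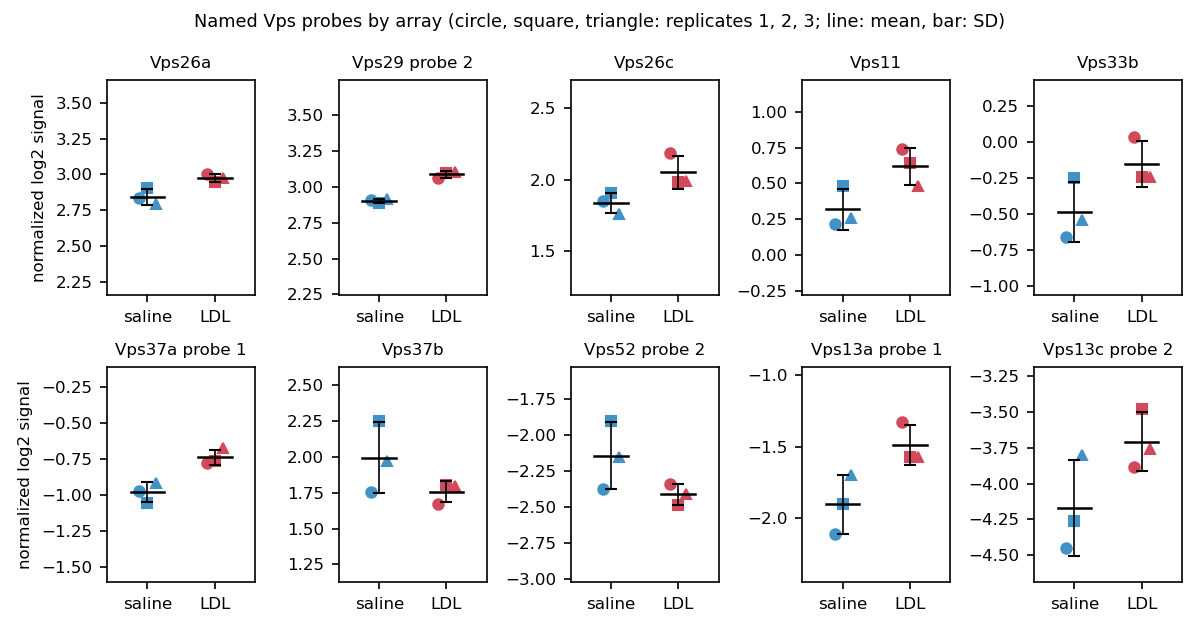
Normalized log2 signal (0 is the 75th percentile of the array) of 10 named Vps probes on 3 saline and 3 LDL arrays, each panel spanning 1.5 log2 units. Symbols mark replicate numbers, lines the means and bars the SD. Groups are apart for Vps26a, Vps29 probe 2, Vps26c, Vps33b, Vps37a probe 1 and Vps13a probe 1 and overlap for the other 4.

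ESCRT genes did not share a direction. Of 11 tested probes 8 were positive and 3 negative, with a median of 0.14 (0.01 without saline replicate 1). ESCRT-I recruits ubiquitinated cargo, and Vps37 is its subunit with 4 paralogs, which were spread on both sides of 0. Vps37a probe 1 had -0.97, -1.06 and -0.92 with saline and -0.78, -0.76 and -0.68 with LDL. All LDL arrays were higher, and the replicates lay close together (log2 fold change 0.24, SE 0.10, unadjusted p = 0.0422 and adjusted p = 0.695 in limma). Vps37b had 1.76, 2.25 and 1.97 against 1.67, 1.80 and 1.80, a log2 fold change of -0.24 (adjusted p = 0.821). Its saline arrays were wide apart, and the value was -0.11 without saline replicate 2 and -0.36 without saline replicate 1. Vps37c had 0.24 (adjusted p = 0.877), but leaving out saline replicate 1 gave 0.013 and leaving out saline replicate 2 gave 0.46. Vps37d had -0.06 (adjusted p = 0.948). The differences between the paralogs were not tested. Vps28, the ESCRT-I subunit that contacts ESCRT-II, had 0.18 (adjusted p = 0.828).

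In ESCRT-II, which passes cargo on to the filament-forming ESCRT-III, the 3 probes of Vps25 had 0.14, 0.23 and 0.22 and Vps36 had 0.01. Saline replicate 1 was the lowest array for each Vps25 probe, at 0.65, 0.17 and -0.01, where the other 5 arrays had at least 0.98, 0.63 and 0.37. Vps4a and Vps4b, the ATPases that take ESCRT-III filaments apart, had values of opposite sign near 0. Vps4a had 0.53, 0.61 and 0.86 with saline and 0.20, 0.92 and 1.02 with LDL, so LDL held both the lowest and the highest array (0.04, 95% interval -0.50 to 0.59, and of either sign when single arrays were left out). Vps4b had 2.58, 2.56 and 2.40 against 2.66, 2.31 and 2.46, with -0.04 (95% interval -0.33 to 0.26, turning to 0.00021 under median scaling). The only member probe that was not compared, Vps37a probe 2, passed the background flag on 2 saline and 2 LDL arrays. Its processed signal ran from 20.6 to 39.2 on the linear scale of the scanner. The dimmest probes that were compared, Vps13c probe 2 and Vps13b probe 2, ran from 34.9 to 75.4 and from 42.4 to 88.4.

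GARP/EARP, the tether of Vps51, Vps52 and Vps53 with either Vps54 (GARP) or Vps50 (EARP), had 3 positive and 4 negative probes and a median of -0.07. Leaving out an array moved it to 0.01 (saline replicate 1), -0.12 (saline replicate 2) or -0.03 (LDL replicate 3), and it was -0.02 with normexp and quantile normalization and with the authors' values. Vps50, the subunit of the recycling form, had -0.59, -0.43 and -0.65 with saline and -0.32, -0.41 and -0.45 with LDL, which met at the edge (log2 fold change 0.16, adjusted p = 0.831). Vps54, the subunit of the Golgi form, had -0.07 (adjusted p = 0.941) and -0.15 (adjusted p = 0.899) on its 2 probes. The intervals of Vps50 (-0.09 to 0.42) and of the Vps54 probes (-0.33 to 0.20 and -0.53 to 0.23) overlapped, and the difference between them was not tested. Vps52 was the only gene with several tested probes (11 genes) whose probes differed in sign. Its probe 1 had 0.02 (adjusted p = 0.986) and was negative with the authors' values and with normexp. Its probe 2 had -2.37, -1.90 and -2.15 against -2.34, -2.48 and -2.41, a log2 fold change of -0.27 (adjusted p = 0.788), where saline replicate 1 lay within the LDL range. Vps51 had -0.11 (adjusted p = 0.880) and Vps53 0.16 (adjusted p = 0.856).

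The 9 probes of the 4 VPS13 genes were all positive, with a median of 0.24, and 9 positive under each of the 4 other scalings. With 1 array left out, 8 were positive each time, except that 9 were without saline replicate 3. Leaving out saline replicate 2 gave a median of 0.12. It was 0.41 in slide row 1 (replicates 1 and 2) and 0.04 in slide row 2 (replicate 3), where 5 of 9 were positive. Vps13a encodes chorein, whose loss causes chorea-acanthocytosis. Its probe 1 had -2.11, -1.90 and -1.70 with saline and -1.33, -1.57 and -1.57 with LDL. All LDL arrays were higher (log2 fold change 0.41, 95% interval 0.08 to 0.75, unadjusted p = 0.0228 and adjusted p = 0.619 in limma), but probe 2 had only 0.11 (adjusted p = 0.897). Vps13c, found at contacts of late endosomes and lipid droplets with the endoplasmic reticulum, had -4.45, -4.26 and -3.80 with saline and -3.88, -3.48 and -3.76 with LDL on probe 2. LDL replicate 1 lay below saline replicate 3, and the log2 fold change was 0.46 (SE 0.19, adjusted p = 0.721). Its probe 1 had -3.48, -3.69 and -3.05 against -3.12, -2.85 and -3.30, with 0.32 (adjusted p = 0.824). Both probes were dim.

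Vps13b, the Cohen syndrome gene of the Golgi, had 1.07, 0.54 and 0.79 with saline and 1.14, 0.92 and 0.98 with LDL on probe 1. The range of saline reached into that of LDL, and the log2 fold change was 0.22 (adjusted p = 0.850), against 0.09 for probe 2. Vps13d, which acts at mitochondria and peroxisomes, had 0.35, -0.59 and 0.07 against -0.29, 0.17 and 0.11 on probe 1, with the lowest and the highest array both in saline (0.06, 95% interval -0.55 to 0.66, and -0.21 without saline replicate 2). Its probes 2 and 3 both had 0.24 (adjusted p = 0.810 and 0.844).

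The 3 genes outside these complexes had 2 positive and 1 negative value, with a median of 0.03. Vps45, a partner of syntaxins in fusion at endosomes, had -0.17, 0.42 and 0.27 with saline and 0.44, 0.28 and 0.30 with LDL. Saline replicate 1 stood below the other 5 arrays, and the log2 fold change was 0.16 (adjusted p = 0.893), and -0.00646 without that array. Vps72 had -3.55, -2.79 and -2.91 against -3.31, -3.16 and -3.29, with -0.17 (adjusted p = 0.913). Vps9d1 had 0.03 (adjusted p = 0.974).

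Leaving out 1 array moved the estimate of 39 of the 49 probes by over 1.5 times, and leaving out saline replicate 1 did so for 30. An estimate near 0, such as that of Vps36 (0.01), passes this limit easily. Saline replicate 1 was the lowest of the 6 arrays for 23 of the 49 probes, and LDL replicate 1 the highest for 20. These counts were not made over all tested probes, so whether they are particular to Vps probes is not known. Each probe was centred on its own mean over the 6 arrays to compare its position between arrays. The median position of the Vps probes was -0.13, 0.05 and -0.06 on saline replicates 1 to 3 and 0.10, 0.03 and 0.04 on LDL replicates 1 to 3, while that of all tested probes lay between -0.02 and 0.07. The complexes leaned on different saline arrays. On saline replicate 1 all 11 HOPS/CORVET probes were below their own mean, with a median of -0.34, and on saline replicate 2 only 2 of them were. On saline replicate 2 all 9 VPS13 probes were below their own mean, with a median of -0.32, and on saline replicate 3 only 2 were. The saline arrays also spread more than the LDL arrays. The median SD of the Vps probes was 0.21 with saline and 0.08 with LDL, and 39 of 49 had the larger SD in saline, as had 75.1% of all tested probes (median SD 0.20 and 0.11). The share of all probes that passed the background flag ran from 55.9% (saline replicate 2) to 66.9%. The part of these differences between arrays in the results was not tested.

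**Figure D4:**
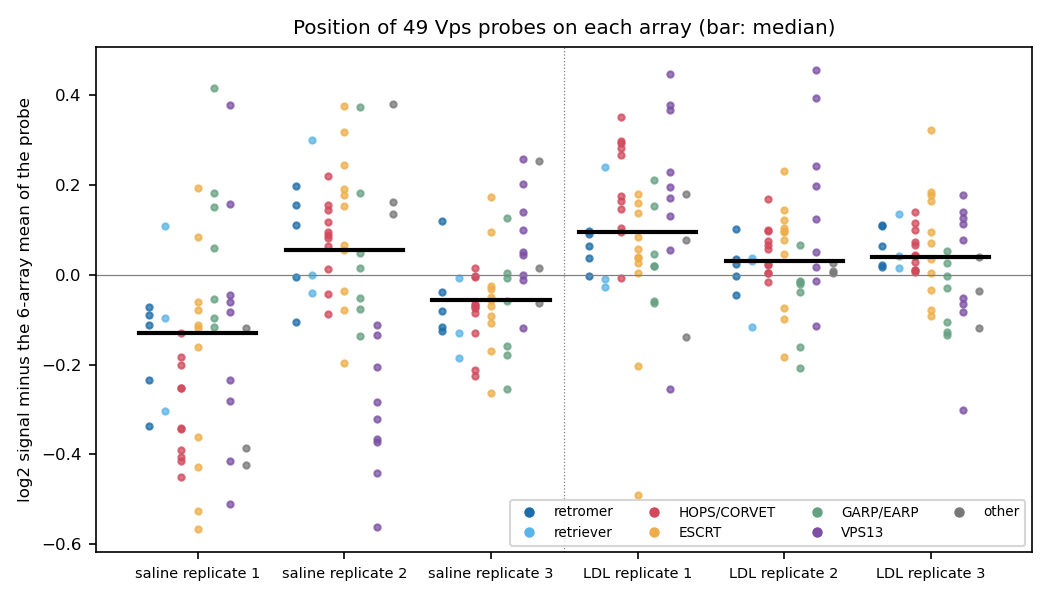
Normalized log2 signal of each of the 49 Vps probes minus its own mean over the 6 arrays, by array, coloured by complex, with the median as a bar. HOPS/CORVET points lie below 0 on saline replicate 1 and VPS13 points below 0 on saline replicate 2, while the LDL medians all lie above 0.

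**Figure D5:**
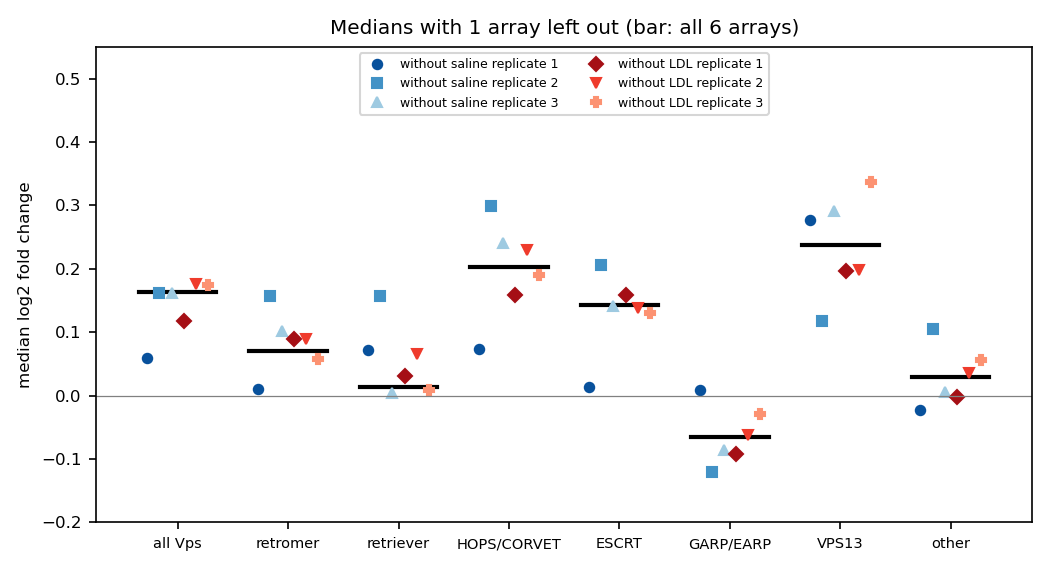
Median log2 fold change of all Vps probes and of each complex with all 6 arrays (bar) and with each array left out (symbols). The medians of GARP/EARP and of the other genes cross 0 and those of the remaining groups stay above it. The HOPS/CORVET median is lowest (0.07) without saline replicate 1 and that of VPS13 (0.12) without saline replicate 2.

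Genes that work with these complexes but have no Vps name were listed by complex. Of 112 genes, 109 had a tested probe, 150 probes in all. None of the probes passed (0.0879% over the array), the lowest adjusted p being 0.525, and 3 had an unadjusted p below 0.05, all higher (2.87% higher and 4.08% lower over the array). There were 98 positive and 52 negative values with a median of 0.06 (44.4% positive over the array), and the median was 0.0053 without saline replicate 1. LDL values lay above all saline values for 21 of the 150 probes and below for 4 (background 5.68% and 8.40%). The list medians were 0.11 for retromer partners, 0.05 for retriever and Commander, 0.05 for HOPS/CORVET, 0.06 for ESCRT, 0.06 for GARP/EARP, 0.06 for VPS13 and 0.10 for the phosphatidylinositol 3-kinase Vps34 (Pik3c3) with its partners. Without saline replicate 1 they were 0.0019, -0.0024, 0.024, 0.047, -0.060, -0.016 and 0.041 in the same order. Among retromer partners, Washc2, the subunit by which the actin-nucleating WASH complex binds retromer, had 0.79, 0.87 and 0.79 with saline and 1.69, 1.27 and 1.17 with LDL. All LDL arrays were higher (log2 fold change 0.56, SE 0.15, unadjusted p = 0.00783 and adjusted p = 0.525 in limma). Igf2r, the receptor that carries lysosomal enzymes and is recycled by retromer, had 1.46, 1.00 and 1.09 against 1.94, 1.598 and 1.51, without overlap and with a log2 fold change of 0.50 (adjusted p = 0.628).

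In the other partner lists the smallest p belonged to Ccdc93 probe 1 (0.25) and Commd10 (-0.24) of the Commander complex, Stx8 probe 1 (0.40) and Plekhm1 (0.21) of late endosome fusion, Mvb12a (0.29) and Chmp2a (0.24) of ESCRT, Tgoln1 (0.24) and Vti1a probe 1 (0.19) of Golgi carriers, Atg2b (0.28) and Osbp probe 2 (-0.38) of lipid transfer, and Pikfyve probe 1 (-0.33) and Pik3r4 (0.27) of phosphoinositide kinases, each given as log2 fold change. Their adjusted p in limma lay between 0.611 and 0.828. Without saline replicate 1, Stx8 probe 1 was 0.20, Chmp2a 0.10, Pik3r4 0.14 and Pikfyve probe 1 -0.19. Without LDL replicate 1, Tgoln1 was 0.12 and Atg2b 0.18. Among the named partners, Commd10 and Pikfyve probe 1 had LDL values below all saline values. Ptpn23, an ESCRT-linked phosphatase, had 2.41, 2.53 and -3.97 with saline and 2.90, 2.74 and 2.60 with LDL, so that its log2 fold change of 2.42 (SE 1.64, adjusted p = 0.841) rests on saline replicate 3, and its values ran from 0.28 to 6.57 over the other settings.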

How the data were processed

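Precursor cell cultures were compared after LDL (3 arrays) and saline (3 arrays), hybridized to 1-colour Agilent arrays with cyanine-3 cRNA made from 100 ng of total RNA, per the labels' protocols. Each deposited scanner file holds linear spot intensity, background-subtracted and detrended by Agilent Feature Extraction 10.7.3.1 per the file headers, and not normalized between arrays. A second deposited table, the authors' log2 values of these arrays, rests on a normalization not given in the sources used (R 3.4.4 and limma 3.34.9 are among the tools in the submitters' processing notes). Its columns correlated with log2 of the processed signal at 0.987 to 0.993 across spots and had medians from 6.74 to 6.76. It served as an alternative.

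From each array's log2 processed signals the 75th percentile of its non-control spots was subtracted. Spots of a probe were then averaged without outlier spots. Probes with several spots needed 50% of them flagged as above background. The groups were compared with R 4.3.3 and limma 3.58.1 (two-sided moderated test from lmFit and eBayes, no covariates) on 32990 probes, with Benjamini-Hochberg adjustment, and an adjusted p of 0.05 was called. The fit was by probe, because members are probes. No probe of a member lost a spot to an outlier flag or was saturated. With 3 arrays a group, exact permutation p-values are at least 0.1. The number of arrays limits the precision. Of 55681 probes 28331 had a symbol from the RefSeq gene table (GRCm38.p6). The fit was also run on simulated arrays with independent noise of the same SD in both groups. In the real arrays saline spread more than LDL, so the simulation does not speak for these data in that respect. Members, gene lists and complexes were chosen with earlier results of these data known, so no list was tested as a set. Named with per-array values were, by the rule, the 2 genes with the smallest p in each complex and 10 core genes. Vps18 and Vps39, the 3 probes of Vps25 on single arrays, and Ptpn23 were added after their values were seen. Figures were drawn with matplotlib 3.10.9.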

Additional observations from a re-analysis of the deposited data

How the results depend on the processing

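No Vps probe was called under any of 18 other settings with a test (lowest adjusted p 0.330, without saline replicate 2). Of the 49 probes 33 kept their direction in each setting with a test that gave them a value, which were 18 for 35 probes and 16 for the 14 dimmer probes of genes with several. With 1 array left out, 34 to 40 of the 49 were positive and the Vps median was between 0.059 and 0.18. The medians then ran from 0.011 to 0.16 for retromer, 0.00465 to 0.16 for retriever, 0.074 to 0.30 for HOPS/CORVET, 0.013 to 0.21 for ESCRT, -0.12 to 0.0090 for GARP/EARP, 0.12 to 0.34 for VPS13 and -0.022 to 0.11 for the other genes. The GARP/EARP median of -0.07 was -0.018 with normexp and quantile normalization, -0.017 with the authors' values and 0.018 with the brightest probe of each gene. The retriever median of 0.01 was 0.11 with the brightest probe or the mean over probes, -0.052 in slide row 1 and 0.15 in slide row 2. The VPS13 median of 0.24 was 0.41 in slide row 1 and 0.037 in slide row 2. The cause of these shifts was not tested.

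In slide row 2, with no test, 7 probes changed sign, Vps13b probe 2 to -0.56, Vps13c probe 1 to -0.25, Vps13d probe 2 to -0.072 and probe 3 to -0.12, Vps35 to -0.0100, Vps37d to 0.030 and Vps4b to 0.058. In slide row 1 those that did were Vps35l at -0.052 (probe 1) and -0.061 (probe 2), Vps36 at -0.026, Vps4a at -0.0096 and Vps52 probe 1 at -0.051. Vps4b was 0.00021 with median scaling. Vps52 probe 1 was -0.017 with the authors' values, -0.018 with normexp and -0.13 as the mean over probes. With 1 array left out, the ranges that spanned 0 were -0.11 to 0.26 for Vps13b probe 2, -0.21 to 0.26 for Vps13d probe 1, -0.0025 to 0.27 for Vps25 probe 1, -0.055 to 0.16 for Vps26b, -0.081 to 0.15 for Vps35, -0.048 to 0.072 for Vps35l probe 1, -0.14 to 0.16 for Vps35l probe 2, -0.074 to 0.11 for Vps36, -0.11 to 0.022 for Vps37d, -0.0065 to 0.29 for Vps45, -0.11 to 0.30 for Vps4a, -0.13 to 0.043 for Vps4b, -0.056 to 0.11 for Vps52 probe 1, -0.12 to 0.0090 for Vps54 probe 1, -0.25 to 0.022 for Vps54 probe 2 and -0.022 to 0.11 for Vps9d1.

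Over the whole array 5 probes passed as higher and 24 as lower. The counts were 11 higher with median scaling, 12 higher and 38 lower with normexp, 9 higher with the authors' values, 8 higher with probes above background on all 6 arrays, 22 higher and 39 lower with trended robust variances, 1 higher and 11 lower with slide row as a block, 0 and 0 without the background filter, 0 and 0 in slide row 1, and 0 to 7 higher and 0 to 22 lower with 1 array left out. With 0 calls, limma gave 2368 probes an unadjusted p below 0.05 without the filter and 1104 in slide row 1. Under the replicate block the counts were 0 and 0, although 2474 had an unadjusted p below 0.05 in limma. Deviations of same-numbered arrays correlated at 0.22, -0.08 and 0.19 across tested probes, and those of differently numbered arrays at -0.27 to 0.08. Replicates 1 and 3 thus had the highest values and replicate 2 a negative one. These values do not settle whether the numbers pair the arrays, and the main fit left pairing out. The block leaves each fold change as it is, and with it 0 Vps probes were called.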
